A study of Homo sapiens with 18 samples.

Results

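The cells of the SARS2-deleted line, 9 days after doxycycline was withdrawn, were set against the unmodified parental line grown without doxycycline. SARS2 encodes the seryl-tRNA synthetase of mitochondria. All cells were HAP1, a near-haploid human line derived from a chronic myeloid leukaemia. The first group was the ∆SARS2+SARS2-1xFLAG line kept without the drug for 9 days, and the second was unmodified parental Hap1 with no dox. The genotype names a deletion of SARS2 and an added, FLAG-tagged SARS2 gene, and all 12 libraries of that line carry both. Each group had 3 libraries, so 6 of the 18 libraries of the series were compared, across the 21615 genes with enough counts to test of 59251 in the tables. The other 12 libraries were the same deleted line at 3 and 6 days without the drug, the deleted line with 15 ng/mL doxycycline and the parental line with that dose, 3 each. Neither compared group had the drug at harvest, but per the labels cells grew in it continuously until its removal, and the labels do not say how long the parental cells had been without it. Nor do they say which promoter drives the transgene, whether the deleted line is 1 clone or what kind of deletion it carries. Whether the 3 libraries of a group were grown as separate cultures is not stated, and the spread that the p-values rest on may be technical. In bulk RNA, fewer cells of a kind and less RNA per cell cannot be told apart.

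As background, SARS2 charges the serine tRNAs of mitochondria, which are needed to translate the respiratory-chain subunits encoded in mitochondrial DNA. The other proteins of the mitochondrial ribosome and of the respiratory complexes are encoded in the nucleus. In cultured mammalian cells, loss of mitochondrial translation is known to trigger the integrated stress response, in which the transcription factor ATF4 turns on genes of amino acid synthesis and transport. The 37 genes of the mitochondrial chromosome had 0 counts in each of the 18 libraries, so their RNA is not described here.

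The 3 day 9 libraries held 93475311, 95320282 and 111123481 counts in genes and the 3 parental libraries without the drug held 90760854, 89354063 and 91789880. Levels are given as counts per 1e6 scaled counts (CPM), with library sizes scaled by the trimmed mean of M-values. One library stood apart. In parental replicate 3, 272 of the 11777 genes with at least 5 CPM in its group were more than 2-fold below both other replicates, against 30 of 11663 in day 9 replicate 3 and at most 4 in each of the other 16 libraries. Results were therefore recomputed without each of the 6 libraries in turn.

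SARS2 itself was not lower at day 9. Its level was 43.3, 34.0 and 48.1 CPM in the day 9 libraries, against 36.6, 40.4 and 42.6 CPM in the parental libraries, and the groups overlapped. The log2 fold change was 0.07 ± 0.10 (SE, edgeR's quasi-likelihood test, adjusted p = 0.56), and without day 9 replicate 2 it was 0.20 with adjusted p = 0.042. A lower level after loss of the gene and withdrawal of the drug was thus not seen, and the libraries are called day 9 from their labels. The counts fall on the gene name (chromosome 19, 38915266 to 38930763, minus strand, in the coordinates of the tables), where reads of the transgene and of what is left of the locus could not be separated. With doxycycline, the deleted line averaged 24.2 ± 0.92 CPM and the parental line 44.3 ± 1.67 CPM (SD, n = 3 each). The line difference without the drug at day 9 was 0.94 higher on the log2 scale than the line difference with it (adjusted p = 1.1e-05).

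The neighbours of SARS2 differed in both directions. MRPS12, a protein of the small subunit of the mitochondrial ribosome whose gene starts next to SARS2 on the other strand, had 49.5, 49.0 and 69.6 CPM at day 9 and 29.5, 34.3 and 21.9 CPM in the parental libraries (log2 fold change 0.97 ± 0.14, adjusted p = 9.4e-06). NFKBIB, an inhibitor of NF-kB, had 74.4, 60.8 and 83.3 CPM at day 9 and 42.9, 47.7 and 27.9 CPM in the parental libraries. The day 9 libraries were above every parental library for both genes. SIRT2, a deacetylase, was lower at day 9 (log2 fold change -0.47 ± 0.07, adjusted p = 8.9e-06). FBXO17 was at 0.0105 to 0.0396 CPM at day 9 and 0.195 to 0.280 CPM in the parental libraries, and CCER2 was not called (-0.26 ± 0.26, adjusted p = 0.41).

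Across all genes, 13034 of 21615 tested genes were called at an adjusted p under 0.05, a share of 60.3%. Of these, 6226 (28.8% of the tested genes) were higher at day 9 and 6808 (31.5%) were lower, with 1965 higher and 2853 lower at least 2-fold. The median log2 fold change of all tested genes was -0.02. Counts for the other comparisons are set beside these, and the comparisons share libraries with it and with each other. Against the same 3 parental libraries, 10553 genes (48.8%) were called at day 3, 5018 higher and 5535 lower. At day 6, 7306 (33.8%) were called, 3381 higher and 3925 lower. With doxycycline in both lines, 4171 genes (19.3%) separated the deleted from the parental line, 2015 higher and 2156 lower. The parental line without against with doxycycline differed in 8519 genes (39.4%), 4540 higher and 3979 lower, although it carries no transgene. The deleted line at day 9 against its own libraries with the drug differed in 10027 (46.4%), 4877 higher and 5150 lower. These counts over all 21615 tested genes are the background for the list counts of the same comparisons below. The line difference at day 9 without the drug departed from the line difference with it in 11176 genes (51.7%). Values of the line difference with the drug, or of each line against its own libraries with it, are therefore given for some gene groups. They are not given for every list.

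**Figure D1:**
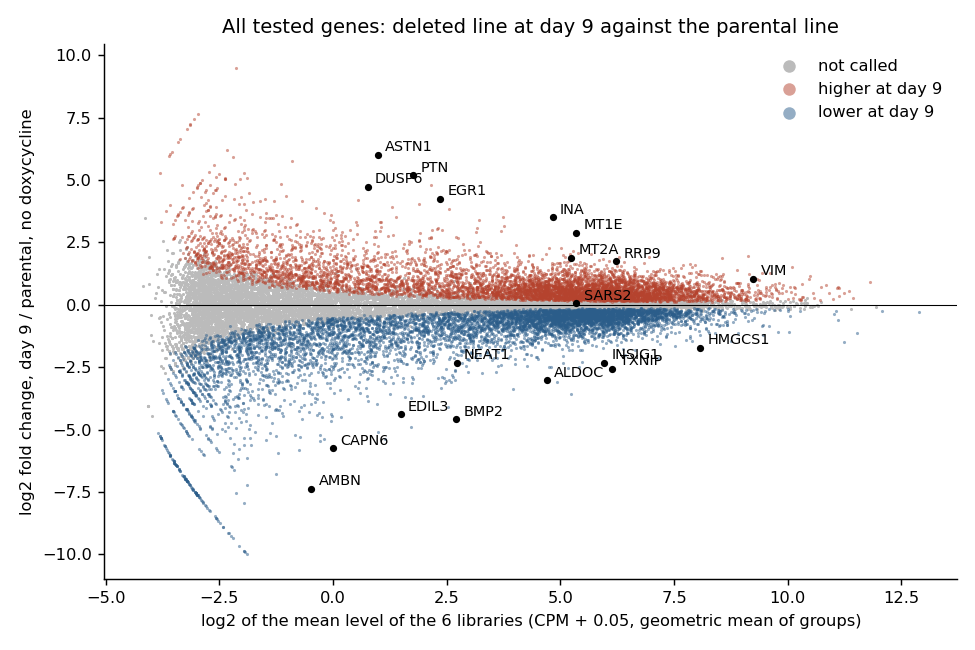
Log2 fold change of each tested gene between the day 9 libraries and the parental libraries without doxycycline (vertical axis), against the log2 mean level of the 2 groups in CPM with 0.05 added (horizontal axis). Red points were called higher at day 9 (6226 genes), blue points lower (6808 genes) and grey points were not called. The streaks at low levels are genes at 0 in a group, whose fitted fold change is no bound.

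Among genes with at least 5 CPM in the higher group, the largest positive difference was in ASTN1, a neuronal adhesion protein, which had 12.9, 14.4 and 15.96 CPM in the day 9 libraries, against 0.304, 0.208 and 0.151 CPM in the parental libraries (log2 fold change 6.02 ± 0.16, adjusted p = 3.4e-15). The gene lies on chromosome 1 at 176857321 to 177164712. It was also apart with doxycycline, at a mean of 21.2 CPM in the deleted line and 0.264 CPM in the parental line. PTN, the secreted growth factor pleiotrophin, had 19.7, 21.1 and 17.95 CPM at day 9 and 0.489, 0.481 and 0.636 CPM in the parental libraries (5.19 ± 0.13, adjusted p = 2.6e-15). Both genes were far above the parental level in each deleted-line group, the lowest mean being 11.3 CPM for PTN at day 6. ACTG2, an actin of smooth muscle, followed with 20.9, 19.9 and 26.9 CPM at day 9 and 0.727, 0.744 and 0.981 CPM in the parental libraries (4.78 ± 0.18, adjusted p = 7.4e-13), and its level with the drug was 6.70 CPM in the deleted line and 1.64 CPM in the parental line.

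Some others among the 12 highest were closer in the 2 lines while the drug was present. BSN, a scaffold protein of the presynaptic zone, had 14.3, 14.6 and 15.1 CPM at day 9 and 0.966, 0.766 and 0.928 CPM in the parental libraries, while with doxycycline the means were 3.38 CPM in the deleted line and 2.52 CPM in the parental line. INA, the neuronal intermediate filament internexin, had 87.5, 101 and 98.7 CPM at day 9 and 8.03, 9.44 and 7.67 CPM in the parental libraries. TP53I3, a p53-induced oxidoreductase, had 33.8, 31.4 and 24.5 CPM at day 9 and 3.05, 3.14 and 2.32 CPM in the parental libraries. For TP53I3 the means with the drug were 10.7 CPM in each line, and against its own libraries with the drug the deleted line was at 1.48 and the parental line at -1.91 on the log2 scale. CSRP1, GASK1A, MANEAL and BICDL1 differed by 3.92, 3.51, 3.51 and 3.33 on the log2 scale, and DUSP6 and EGR1 are described with the ERK genes. In 11 of these 12 genes the line difference without the drug was larger than that with it, and for ASTN1 they were not told apart (-0.31, adjusted p = 0.33). The 12 were chosen by the line difference without the drug, so this count was partly set by the choice.

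Under the same limit, the largest negative difference was in AMBN, the enamel protein ameloblastin, on chromosome 4 at 70592256 to 70607288. It had 0, 0.105 and 0 CPM in the day 9 libraries, against 6.07, 5.42 and 6.53 CPM in the parental libraries (log2 fold change -7.37 ± 0.54, adjusted p = 3.9e-09, and -12.09 without day 9 replicate 2). All deleted-line groups were near 0 for AMBN, with a mean of 0.0321 CPM with the drug. EDIL3, an integrin ligand of the matrix, had 0.553, 0.506 and 0.702 CPM at day 9 and 13.7, 11.2 and 11.95 CPM in the parental libraries, and it too was low in the deleted line with the drug (0.704 CPM, against 10.5 CPM in the parental line). BMP2, a bone morphogenetic protein, had 1.26, 1.22 and 1.43 CPM at day 9 and 35.04, 34.5 and 25.1 CPM in the parental libraries (-4.59 ± 0.16, adjusted p = 1.9e-13), with 2.46 CPM in the deleted line and 23.5 CPM in the parental line with the drug. These 3 genes thus separated the lines with and without doxycycline.

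CAPN6, a calpain-like protein, had 0.0996, 0.179 and 0.0593 CPM at day 9 and 5.90, 6.15 and 6.28 CPM in the parental libraries, with 1.86 CPM in the deleted line and 1.91 CPM in the parental line with the drug. MVP, the major vault protein, had 0.741, 1.01 and 0.663 CPM at day 9 and 8.81, 9.03 and 13.6 CPM in the parental libraries, whereas with the drug it was higher in the deleted line (5.44 CPM, against 2.01 CPM). For CAPN6 and MVP both the low day 9 level and the high parental level without the drug departed from the levels with it. IL21R, ELAPOR2, SNAP91 and 3 uncharacterised loci, LOC124900697, LOC112268113 and LOC124906082, were also among the 12 lowest, at log2 fold changes of -3.99, -3.72, -3.67, -5.38, -5.09 and -4.07.

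**Figure D2:**
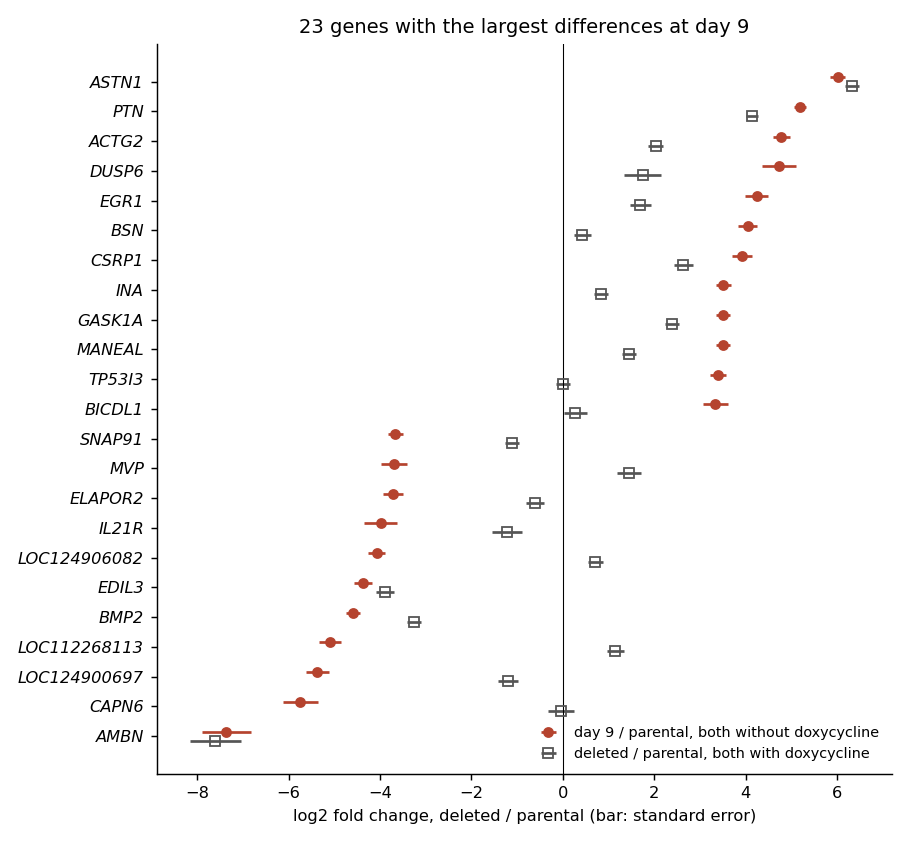
Log2 fold change of the deleted over the parental line for 23 of the 12 highest and 12 lowest genes at day 9, with standard errors. Red circles are day 9 against parental without doxycycline and open squares are the same lines with it. ASTN1, AMBN and EDIL3 have both points close together, and the other 20 genes have them apart. The genes were chosen by the red values.

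Some genes were close to absent in the day 9 or the parental libraries without the drug. Under 0.1 CPM in each day 9 library and over 1 CPM in each parental library were 11 genes, and the opposite was met by SLFN12 alone. MEIOB, a meiotic DNA-binding protein, had 0 counts in the 3 day 9 libraries and 1.35, 1.499 and 1.38 CPM in the parental ones, which is at least 134.5-fold lower when 3 counts over the group are taken as the floor. With doxycycline the deleted line too had 0 CPM of MEIOB. The same held for ZNF141, a zinc finger gene that had 0, 0 and 0.00989 CPM at day 9 and 1.34, 1.08 and 1.19 CPM in the parental libraries. C13orf42 likewise had 0 counts at day 9 and 1.40, 1.32 and 1.20 CPM in the parental libraries. TKTL1, a transketolase-like enzyme, had 0.0221, 0 and 0.0396 CPM at day 9 and 2.70, 2.002 and 2.58 CPM in the parental libraries, and ERBB4, a receptor tyrosine kinase, 0, 0.0632 and 0.0396 CPM at day 9 and 2.10, 1.78 and 2.69 CPM in the parental libraries. REM2, a small GTPase, had 0, 0.0211 and 0.0791 CPM at day 9, 1.46, 1.48 and 1.62 CPM in the parental libraries, but the deleted line averaged 1.21 CPM at day 6 and the parental line with the drug 0.0938 CPM. INSYN1-AS1 and BTF3P10 were likewise low at day 9, while the deleted line averaged 1.72 and 2.48 CPM at day 6. With the drug it averaged 1.11 and 0.937 CPM for these genes. At day 3 the deleted line was low as well, at 0.0348 CPM for REM2, 0.300 CPM for INSYN1-AS1 and 0.373 CPM for BTF3P10. LOC105371958 averaged 0.573 CPM at day 6 and 0.717 CPM with the drug in that line. HLA-L and CCBE1 were the other genes low at day 9, and SLFN12, an RNase-related protein, had 1.56, 1.37 and 2.49 CPM at day 9 and 0.0760, 0.0438 and 0.0647 CPM in the parental libraries.

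**Figure D3:**
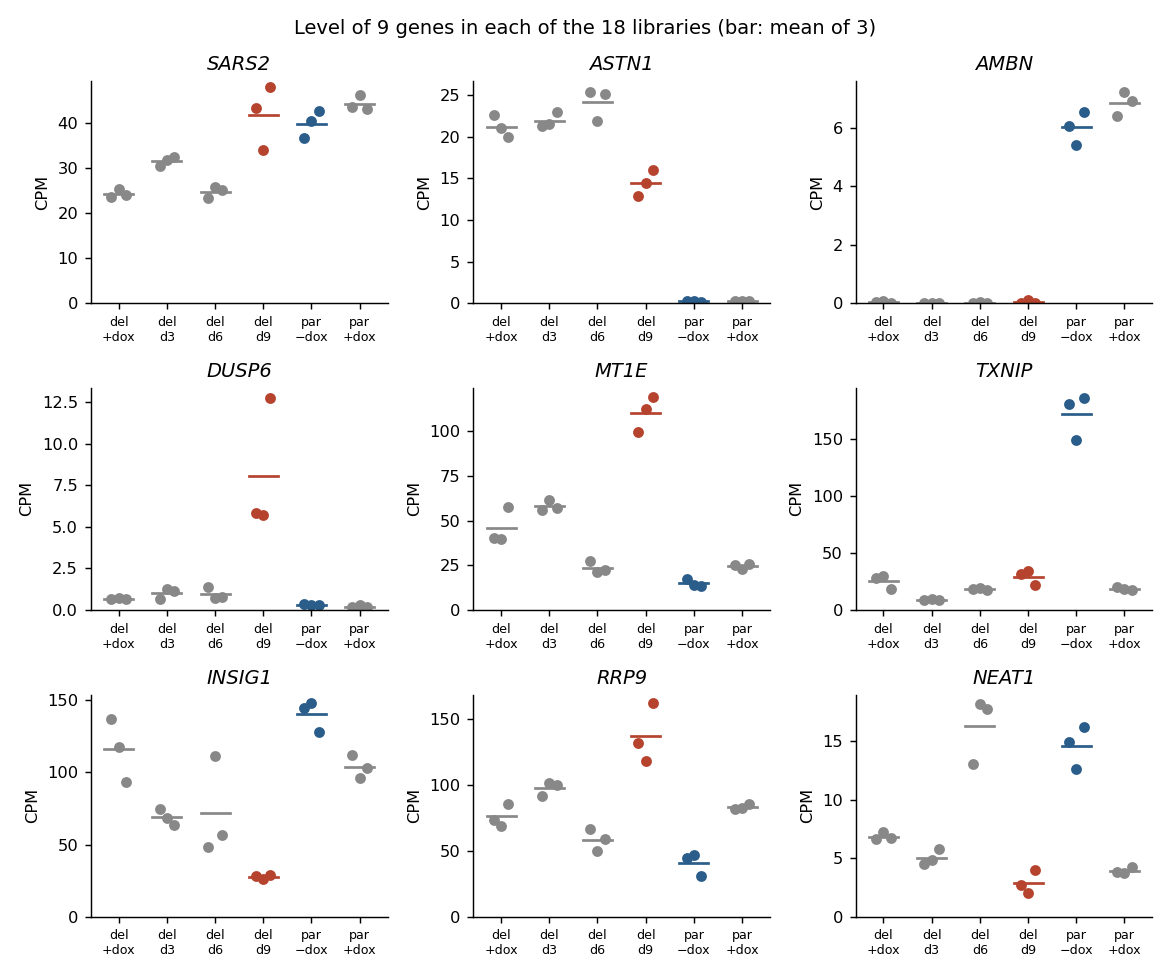
Level in CPM of 9 genes in each of the 18 libraries, with the mean of 3 as a bar; del is the deleted line with doxycycline (+dox) or 3, 6 and 9 days without it, par the parental line without (−dox) and with it. Day 9 is in red and the parental line without the drug in blue: SARS2 overlaps between them, ASTN1 and AMBN split the lines in all groups, and TXNIP is lower at day 9 than in the parental line without the drug.

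Nuclear genes for mitochondrial translation were mostly higher at day 9. Of 80 genes for proteins of the mitochondrial ribosome, 51 were higher, 6 lower and 23 not called, against the background of 28.8% higher and 31.5% lower, with a median log2 fold change of 0.36 against -0.02 for all genes. MRPL1 had 65.6, 57.9 and 74.3 CPM at day 9 and 17.2, 15.7 and 17.1 CPM in the parental libraries (1.98 ± 0.15, adjusted p = 2.9e-09), and MRPL20 and MRPL15 differed by 1.01 and 1.08. MRPL41 had 108, 114 and 124 CPM at day 9 and 73.3, 83.6 and 16.1 CPM in the parental libraries, so that its difference of 1.00 was 0.55 without parental replicate 3, and with only the 6 libraries in the fit its adjusted p was 0.12. Without that replicate 50 ribosome genes were higher and 4 lower. With doxycycline none of the 80 was higher in the deleted line and 16 were lower (median -0.15). The parental line itself had 4 higher and 50 lower without against with the drug (median -0.28), while the deleted line at day 9 had 31 higher and 4 lower than with it (median 0.17).

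Factors of mitochondrial DNA, transcription and translation gave 21 higher and 10 lower of 39 (median 0.24). TRMT10C, a subunit of the enzyme that trims mitochondrial tRNAs, had 72.4, 72.4 and 73.0 CPM at day 9 and 41.2, 35.6 and 36.7 CPM in the parental libraries, a log2 difference of 0.94, and TWNK, the replicative helicase of mitochondrial DNA, differed by 0.91. Among 20 mitochondrial tRNA synthetases, 9 were higher and 6 lower. AARS2, which charges alanine tRNA, had 72.7, 70.1 and 74.9 CPM at day 9 and 30.8, 34.2 and 34.6 CPM in the parental libraries (1.13 ± 0.10, adjusted p = 8.1e-09), and CARS2, YARS2 and LARS2 differed by 0.70, 0.65 and 0.61. The 20 cytosolic synthetases split into 8 higher and 9 lower, with FARSA at 1.21 and VARS1 at 0.73, and AARS1 at -0.64 and SARS1, the cytosolic counterpart of SARS2, at -0.60.

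Complex I, which takes electrons from NADH into the respiratory chain, had 19 of 37 subunit genes higher and 6 lower (median 0.18, and 0.12 without day 9 replicate 3 and 0.27 without parental replicate 1). NDUFS3, a core subunit, had 68.1, 71.7 and 76.8 CPM at day 9 and 47.4, 44.2 and 30.0 CPM in the parental libraries (0.83 ± 0.12, adjusted p = 4.8e-06). NDUFB2, NDUFA11 and NDUFB10 differed by 0.81, 0.77 and 0.74. For NDUFB10, parental replicate 3 was at 62.9 CPM and the other parental libraries at 117 and 118 CPM. Complexes II to V had 17 higher and 7 lower of 43 (median 0.11). With the trend of fold change on gene span and exonic length removed, that list stood at 8 higher and 10 lower. Without day 9 replicate 3 it had 11 higher and 8 lower, and its median was 0.06 without parental replicate 3 and 0.20 without parental replicate 1. The succinate dehydrogenase genes SDHC and SDHA were lower, at -0.50 each, and UQCRC2 of complex III was at -0.47. ATP5MC1, a subunit of the ring of ATP synthase, had 70.5, 69.4 and 63.7 CPM at day 9 and 53.5, 49.8 and 44.5 CPM in the parental libraries (0.46 ± 0.08, adjusted p = 4.6e-05).

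Chaperones and proteases of mitochondria, whose induction marks the mitochondrial unfolded protein response, gave 13 higher and 5 lower of 25 (median 0.15), which was 9 higher and 10 lower when scaled by library size alone and 11 higher and 8 lower without day 9 replicate 3. LONP1, the main matrix protease, had 461, 489 and 461 CPM at day 9 and 297, 332 and 275 CPM in the parental libraries (0.64 ± 0.07, adjusted p = 9.9e-08). It was lower in the deleted line with the drug, at 278.3 CPM against 392.4 CPM in the parental line. HSPE1, the co-chaperonin of HSP60, differed by 0.69. IMMP2L, a peptidase of the inner membrane encoded by a gene of large span, was at -1.01, but at -0.26 with adjusted p = 0.11 after the span trend was removed, and XPNPEP3 was at -0.78. Genes of the tricarboxylic acid cycle and of pyruvate entry leaned the other way, with 4 higher and 15 lower of 34 (median -0.15, and -0.10 without parental replicate 3). PDK1, a kinase that switches off pyruvate dehydrogenase, had 19.3, 19.2 and 21.7 CPM at day 9 and 66.5, 60.6 and 64.5 CPM in the parental libraries (-1.67 ± 0.07, adjusted p = 4.8e-12), and the related PDK4 and PDK3 differed by -2.38 and -0.73. SUCLG2, a subunit of succinyl-CoA synthetase, was at -0.67, and at -0.11 with adjusted p = 0.16 without the span trend.

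Genes that build the cytosolic ribosome were higher almost throughout. Of 36 ribosome biogenesis genes, 35 were higher and none lower, with a median of 0.74, and NAF1 alone was not called (-0.01). RRP9, a protein of a box C/D particle, had 132, 119 and 162 CPM at day 9 and 44.7, 47.2 and 31.1 CPM in the parental libraries (1.75 ± 0.14, adjusted p = 4.1e-09). PPAN, MYBBP1A and GRWD1 differed by 1.59, 1.47 and 1.41. Groups that do not overlap were a condition for naming these 4 genes. The same list had 33 members lower and none higher in the parental line without against with doxycycline (median -0.54), and 28 higher and 1 lower in the deleted line at day 9 against with the drug (median 0.48). With the drug in both lines, none was higher in the deleted line and 17 were lower (median -0.28).

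The proteins of the cytosolic ribosome itself split. Of 78 genes, 20 were higher and 12 lower with a median of -0.03, which ran between -0.11 and 0.04 with 1 library left out. Without day 9 replicate 3 the split was 13 and 23, and with the span and length trend removed it was 9 and 31. RPS10 had 15.9, 16.4 and 17.5 CPM at day 9 and 2.65, 3.14 and 3.49 CPM in the parental libraries (2.42 ± 0.14, adjusted p = 1.2e-10), and RPL17 differed by 1.501. Both have pseudogenes and a read-through gene that overlaps them, so counting may have split their reads. RPL13A, at 1682, 1652 and 1970 CPM at day 9 and 2736, 2763 and 2652 CPM in the parental libraries, was at -0.62.

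Nucleotide synthesis had 16 higher and 4 lower of 25 (median 0.32). CAD, which starts pyrimidine synthesis, had 417, 358 and 412 CPM at day 9 and 151, 174 and 184 CPM in the parental libraries (1.22 ± 0.07, adjusted p = 8.9e-11), and PFAS and UMPS, of purine and of pyrimidine synthesis, differed by 1.34 and 1.18. ADSS1, the adenylosuccinate synthetase of muscle, went against them at -1.98. DNA replication had 32 higher and none lower of 39 (median 0.50). RRM2, a subunit of ribonucleotide reductase, had 511, 466 and 524 CPM at day 9 and 233, 239 and 262 CPM in the parental libraries (1.03 ± 0.06, adjusted p = 1.8e-10). CCNE2, TK1 and MCM5 were at 1.41, 1.05 and 1.00. Mitosis genes gave 4 higher and 15 lower of 32 (median -0.18), and 2 higher and 21 lower without day 9 replicate 3 (median -0.27), with PRC1, PTTG1 and BUB1B at -0.86, -0.82 and -0.70 and UBE2C at 0.90. In the parental line without against with the drug, DNA replication had 1 higher and 23 lower, and mitosis 13 higher and 3 lower. At day 9 against with the drug, the deleted line had 29 DNA replication genes higher and 1 lower. Mitosis there had 2 higher and 13 lower. With the drug in both lines, DNA replication had 3 higher and 2 lower, and mitosis 6 higher and none lower. Nucleotide synthesis had 2 higher and 15 lower in the parental line without against with the drug. Within the deleted line it had 13 higher and 6 lower at day 9 against with the drug.

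**Figure D4:**
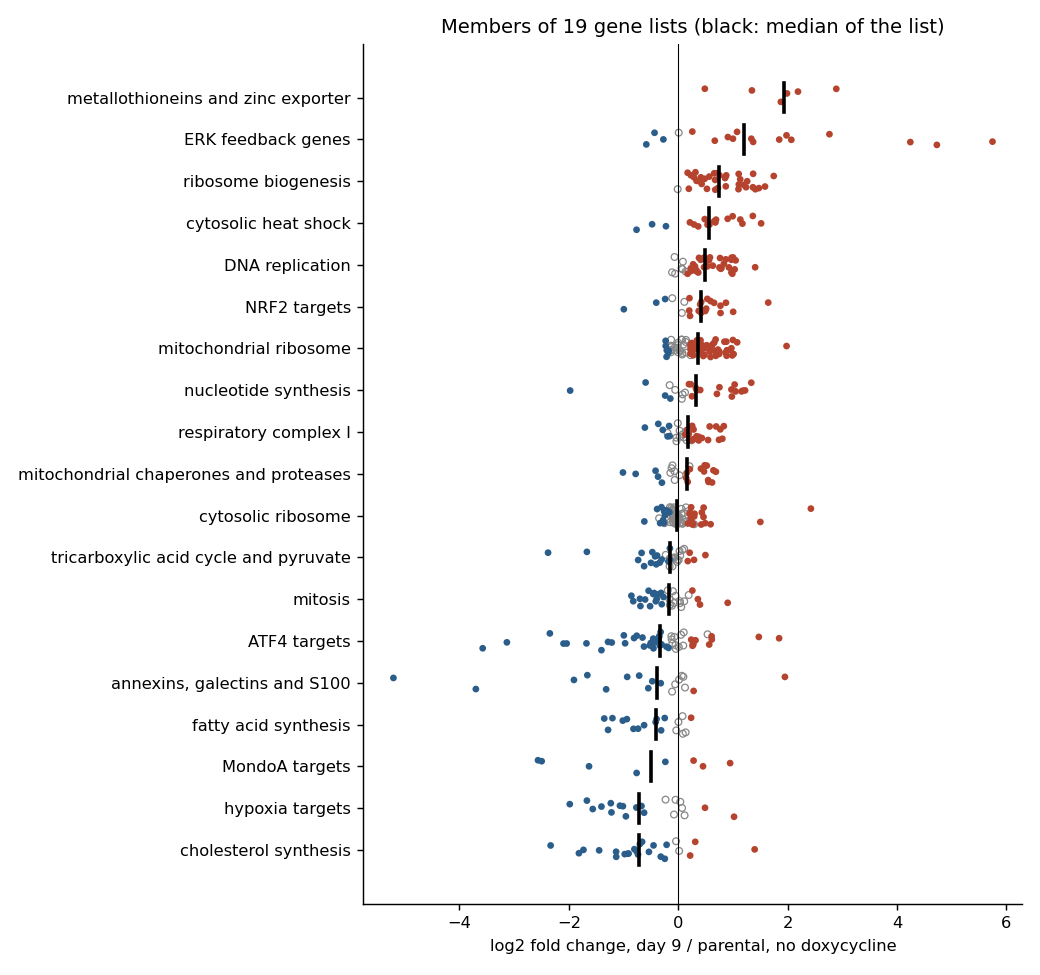
Log2 fold change of each tested member of 19 gene lists between the day 9 and the parental libraries without doxycycline. Red and blue points were called higher or lower, open points were not called, and the black bar is the median of the list, from 1.93 for metallothioneins to -0.72 for cholesterol synthesis and for hypoxia targets.

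ATF4 and its targets were mostly lower at day 9 than in the parental libraries. ATF4 had 429, 439 and 480 CPM at day 9 and 602, 614 and 685 CPM in the parental libraries (-0.50 ± 0.06, adjusted p = 7.4e-07). ATF5 and DDIT3 (CHOP), transcription factors that act with it, were at -0.43 and -0.50. Of 50 ATF4 targets, 10 were higher and 29 lower (median -0.33). DEPP1, an autophagy regulator, had 0.808, 0.916 and 0.267 CPM at day 9 and 7.79, 7.08 and 8.77 CPM in the parental libraries (-3.57 ± 0.30, adjusted p = 8.5e-09). NUPR1, a stress-inducible nuclear protein, had 2.51, 3.52 and 0.870 CPM at day 9 and 10.8, 8.58 and 10.2 CPM in the parental libraries, and LURAP1L was at -2.35. FGF21, a secreted stress hormone, was at most 0.0593 CPM at day 9 and at most 0.280 CPM in the parental libraries, too low for a fold to be given. The hormone genes GDF15 and INHBE went against the list. GDF15 had 2.66, 5.75 and 1.79 CPM at day 9 and 1.08, 1.01 and 0.755 CPM in the parental libraries (1.84 ± 0.31, adjusted p = 4.5e-05), and INHBE had 18.3, 32.3 and 10.5 CPM at day 9 and 6.98, 6.16 and 8.84 CPM in the parental libraries (1.47 ± 0.26, adjusted p = 6.8e-05).

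Against their own libraries with doxycycline, however, ATF4 targets were higher without the drug in each line. The deleted line at day 9 had 36 higher and 3 lower (median 0.66), and the parental line without the drug had 35 higher and none lower (median 0.55). With the drug in both lines, 2 were higher and 26 lower in the deleted line (median -0.35). CHAC1, a glutathione-degrading enzyme chosen after its values were seen, had 46.4, 60.9 and 39.8 CPM at day 9 and 76.0, 73.3 and 81.9 CPM in the parental libraries, and with the drug its means were 11.4 CPM in the deleted line and 20.4 CPM in the parental line. For CHAC1 (0.18, adjusted p = 0.41), DDIT3 (-0.21, adjusted p = 0.32), GDF15 (0.25, adjusted p = 0.72) and ATF4 (-0.01, adjusted p = 0.97), the line difference without the drug was not told apart from that with it. For ATF5 it was higher by 0.60 (adjusted p = 0.0058). These comparisons share libraries with the one at day 9.

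The promoters of ATF4 targets were searched for the C/EBP-ATF composite element, the sequence that ATF4 binds as a dimer with a C/EBP protein, because 29 of the 50 targets were lower. The letters TGATGNAA, on both strands, were found in the 250 bases before the start of 5 of the 41 targets with a promoter in the RefSeq table (GRCh38.p14), namely ATF3, ASNS, CHAC1, HERPUD1 and FGF21, against 3.14% of all 35116 promoters. The promoters of ASNS, which makes asparagine, and of CHAC1 are shown 5′ to 3′ with the match in capitals; they lie at chr7:97872409-97872658 on the minus strand and chr15:40953221-40953470 on the plus strand.
ASNS: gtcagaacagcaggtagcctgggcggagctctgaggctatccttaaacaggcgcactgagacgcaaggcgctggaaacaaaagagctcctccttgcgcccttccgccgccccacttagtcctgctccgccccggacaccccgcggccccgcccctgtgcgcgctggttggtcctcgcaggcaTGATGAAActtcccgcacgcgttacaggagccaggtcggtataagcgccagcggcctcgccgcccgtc
CHAC1: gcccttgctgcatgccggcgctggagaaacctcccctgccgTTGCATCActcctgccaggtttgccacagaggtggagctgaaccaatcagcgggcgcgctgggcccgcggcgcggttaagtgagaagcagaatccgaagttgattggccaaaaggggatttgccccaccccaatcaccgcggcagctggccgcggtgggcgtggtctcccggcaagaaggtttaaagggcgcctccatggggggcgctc
ASNS had 4.15, 4.16 and 3.13 CPM at day 9 and 12.9, 11.9 and 11.9 CPM in the parental libraries (-1.68 ± 0.20, adjusted p = 4.9e-07), and the parental line with the drug stood at 5.31 CPM. A match is a description of the letters and shows no binding.

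Serine, glycine and one-carbon enzymes, part of which are ATF4 targets, gave 8 higher and 9 lower of 25 (median -0.13). The largest differences were in enzymes at low levels. DMGDH, which demethylates dimethylglycine in mitochondria, had 0.420, 0.800 and 0.910 CPM at day 9 and 6.42, 4.93 and 6.63 CPM in the parental libraries (-3.07 ± 0.21, adjusted p = 6.4e-10), and at day 6 the deleted line averaged 18.4 CPM. ALDH1L1, FTCD and SARDH were at -1.97, -2.72 and -1.67, and FTCD was at -4.25 without day 9 replicate 2. Amino acid transporters split evenly, with 10 higher and 10 lower of 27. SLC38A5, a glutamine transporter, had 257, 229 and 257 CPM at day 9 and 89.8, 99.1 and 92.7 CPM in the parental libraries (1.40 ± 0.09, adjusted p = 1.6e-10), SLC25A22, the mitochondrial glutamate carrier, was at 1.08, and SLC7A11, the cystine importer, was at -0.99 and at -0.56 with the span trend removed.

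Of 24 cholesterol genes 19 were lower and 3 higher, with a median of -0.72. INSIG1, the sterol sensor that holds SREBP in the endoplasmic reticulum and is itself an SREBP target, had 28.5, 26.0 and 29.0 CPM at day 9 and 145, 148 and 128 CPM in the parental libraries (-2.33 ± 0.21, adjusted p = 2.1e-08). HMGCS1, an early enzyme of the pathway, had 152, 123 and 167 CPM at day 9 and 486, 466 and 517 CPM in the parental libraries (-1.73 ± 0.20, adjusted p = 5.4e-07). MSMO1, a late enzyme, and STARD4, a cholesterol carrier, were at -1.82 and -1.45. TM7SF2, a sterol reductase, went the other way with 48.5, 56.1 and 31.7 CPM at day 9 and 18.3, 19.2 and 14.2 CPM in the parental libraries (1.40 ± 0.15, adjusted p = 2.4e-07). Within the deleted line, day 9 had 16 of the list lower and 1 higher than with the drug (median -0.57). The parental line without against with the drug had 7 higher and 4 lower (median 0.24), and with the drug the lines differed in 1 higher and 2 lower. Fatty acid synthesis gave 12 lower and 1 higher of 18 (median -0.40, and -0.15 with the span trend removed). SCD, the stearoyl-CoA desaturase, had 444, 451 and 490 CPM at day 9 and 1004, 1044 and 1140 CPM in the parental libraries (-1.20 ± 0.12, adjusted p = 4.4e-08), and ACSS2, ACSL4 and SREBF1 were at -1.35, -1.28 and -1.01.

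The sterol response element, the sequence bound by SREBP, was searched as TCACNCCAC on both strands of the same 250 bases. It was found in 1 of the 18 cholesterol genes with a promoter in the table, SREBF2, which encodes SREBP2, and in 1 of 16 fatty acid genes, MID1IP1, against 0.883% of all promoters. The SREBF2 window, chr22:41832855-41833104 on the plus strand, is shown with the match in capitals.
SREBF2: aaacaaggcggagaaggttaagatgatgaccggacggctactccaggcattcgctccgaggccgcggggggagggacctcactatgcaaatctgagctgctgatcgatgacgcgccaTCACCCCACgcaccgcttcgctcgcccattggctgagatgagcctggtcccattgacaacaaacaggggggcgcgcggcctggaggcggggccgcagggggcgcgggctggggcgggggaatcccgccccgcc
No match says only that these letters are not in this window.

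Among genes that respond to glucose and to low oxygen, more were lower than higher at day 9. TXNIP, an inhibitor of glucose uptake under the sugar sensor MondoA, had 31.3, 34.1 and 21.6 CPM at day 9 and 180, 148 and 186 CPM in the parental libraries (-2.56 ± 0.16, adjusted p = 2.6e-10). With the drug its means were 25.2 CPM in the deleted line and 18.4 CPM in the parental line, and at day 6 the deleted line averaged 18.36 CPM. ARRDC4, its close relative, had 10.5, 9.93 and 10.7 CPM at day 9 and 34.5, 31.0 and 31.0 CPM in the parental libraries, against 10.6 CPM and 11.1 CPM with the drug. Of 8 MondoA targets 5 were lower and 3 higher (median -0.50), among them PIK3IP1 at -2.50, with G6PC3, ARRDC2 and HK2 higher at 0.95, 0.45 and 0.28. Hypoxia targets gave 12 lower, 2 higher and 6 not called of 20 (median -0.72). NDRG1, PDK1, PFKFB4 and DDIT4 were at -1.98, -1.67, -1.56 and -1.40. DDIT4, a brake on mTORC1, had 57.8, 73.8 and 42.2 CPM at day 9 and 150, 152 and 158 CPM in the parental libraries. The parental line without against with the drug had 14 of the hypoxia list higher and 3 lower (median 0.55), and the deleted line at day 9 against with the drug had 5 higher and 9 lower (median -0.19).

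Glycolysis as a list was even, with 10 higher and 9 lower of 23. ALDOC, an aldolase isoform, had 9.56, 12.98 and 4.62 CPM at day 9 and 68.3, 70.0 and 82.4 CPM in the parental libraries (-3.02 ± 0.24, adjusted p = 3.5e-09), and the glucose transporter SLC2A3 was at -2.03. SLC2A1, the main glucose transporter of most cells and a member of the glycolysis and the hypoxia list, went the other way, with 58.6, 56.5 and 79.2 CPM at day 9 and 27.8, 34.5 and 33.6 CPM in the parental libraries (1.02 ± 0.12, adjusted p = 3.8e-07).

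Metallothioneins, small proteins that bind zinc and copper, were higher in all 6 tested genes of their list, which includes the zinc exporter SLC30A1, with a median of 1.93. MT1E had 99.4, 113 and 119 CPM at day 9 and 17.3, 14.1 and 13.3 CPM in the parental libraries (2.89 ± 0.14, adjusted p = 9.3e-12). MT2A had 66.7, 65.6 and 84.8 CPM at day 9 and 19.7, 20.3 and 19.2 CPM in the parental libraries (1.88 ± 0.10, adjusted p = 2.9e-11). MT1M, MT1F and MT1X differed by 2.19, 1.99 and 1.35. SLC30A1 had 30.5, 30.8 and 39.5 CPM at day 9 and 26.9, 24.4 and 20.5 CPM in the parental libraries (0.49 ± 0.13, adjusted p = 0.0024). The groups did not overlap in any of the 6 genes. The metallothionein genes are near-identical copies on chromosome 16, so reads may have been split between them. With doxycycline 4 of the 6 were higher in the deleted line (median 0.71), at 45.9 CPM in the deleted line and 24.7 CPM in the parental line for MT1E, and within the deleted line all 6 were higher at day 9 than with the drug (median 1.05). In the parental line without against with the drug, 2 were lower and none higher (median -0.18).

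Metallothionein promoters are known to carry metal response elements, bound by the zinc-sensing factor MTF1. Their core was searched as TGCACNC or TGCGCNC on both strands of the 250 bases before the start, and 3 of the 6 genes had a promoter in the table. MT2A held 7 matches, MT1X 4 and SLC30A1 1, and 24.8% of all 35116 promoters held at least 1. The windows are chr16:56608334-56608583 and chr16:56682220-56682469, both on the plus strand, and chr1:211579162-211579411 on the minus strand, with the matches in capitals.
MT2A: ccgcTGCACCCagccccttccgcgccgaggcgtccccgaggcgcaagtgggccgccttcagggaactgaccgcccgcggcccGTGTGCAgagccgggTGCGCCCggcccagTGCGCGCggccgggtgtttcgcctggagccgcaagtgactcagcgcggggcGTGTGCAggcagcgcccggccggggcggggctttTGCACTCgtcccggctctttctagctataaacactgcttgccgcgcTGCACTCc
MT1X: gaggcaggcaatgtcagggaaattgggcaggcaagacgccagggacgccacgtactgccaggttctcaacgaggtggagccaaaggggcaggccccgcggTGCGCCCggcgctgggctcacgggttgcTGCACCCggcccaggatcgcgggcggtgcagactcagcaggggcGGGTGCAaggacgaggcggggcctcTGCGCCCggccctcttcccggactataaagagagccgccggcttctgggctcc
SLC30A1: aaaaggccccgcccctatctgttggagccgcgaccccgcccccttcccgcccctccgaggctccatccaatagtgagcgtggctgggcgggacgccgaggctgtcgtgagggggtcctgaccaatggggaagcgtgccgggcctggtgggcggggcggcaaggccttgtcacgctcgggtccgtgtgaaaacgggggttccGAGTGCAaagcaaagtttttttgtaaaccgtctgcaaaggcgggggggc

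Of 24 targets of NRF2, the oxidative stress factor, 18 were higher and 3 lower (median 0.42). NQO1, a quinone reductase, had 56.4, 62.2 and 49.6 CPM at day 9 and 27.0, 27.6 and 29.2 CPM in the parental libraries (1.00 ± 0.09, adjusted p = 2.4e-08), AKR1C1 was at 1.65 and FTH1, the ferritin heavy chain, at 0.87. The lowest value of the list, -0.99, was that of SLC7A11. In the parental line without against with the drug 1 NRF2 target was higher and 13 were lower (median -0.24). The deleted line at day 9 against with the drug had 13 higher and 2 lower (median 0.28). With the drug in both lines 2 were higher and 3 lower. Cytosolic heat shock genes gave 16 higher and 3 lower of 19 (median 0.57). HSPB1 had 405, 403 and 397 CPM at day 9 and 165, 182 and 75.1 CPM in the parental libraries (1.51 ± 0.19, adjusted p = 1.1e-06). HSPA8, the constitutive HSP70, had 1902, 1336 and 3108 CPM at day 9 and 940, 952 and 999 CPM in the parental libraries, and its difference of 1.13 was 0.75 without day 9 replicate 3. HSPH1 and DNAJA1 were at 1.36 and 1.17. The heat shock list had 17 lower and 1 higher in the parental line without against with the drug (median -0.49). In the deleted line at day 9 against with the drug it had 11 higher and 2 lower (median 0.29). With the drug in both lines none was higher and 5 were lower in the deleted line (median -0.18). Genes that answer unfolded proteins in the endoplasmic reticulum split into 9 higher and 8 lower of 22, with CRELD2, MANF and DNAJB11 at 1.41, 0.90 and 0.80 and ERN1, its sensor IRE1, at -0.84.

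Genes induced by the ERK pathway of growth-factor signalling, some of which restrain it and others of which are transcription factors or cell-cycle genes, were higher in 14 and lower in 3 of 18 (median 1.21). The 14 higher calls were as many without each library, while the lower calls, SPRED1, SPRED3 and IER3, were 0 to 2, and 0 without day 9 replicate 1. DUSP6, the phosphatase that inactivates ERK, had 5.82, 5.70 and 12.7 CPM at day 9 and 0.358, 0.285 and 0.270 CPM in the parental libraries (4.73 ± 0.37, adjusted p = 3.2e-09). EGR1, an immediate early transcription factor, had 20.01, 19 and 26.5 CPM at day 9 and 0.912, 1.43 and 1.11 CPM in the parental libraries (4.24 ± 0.25, adjusted p = 8.6e-11). SPRY4, an inhibitor of receptor signalling, had 2.75, 2.296 and 3.31 CPM at day 9 and 0.0217, 0.0219 and 0.108 CPM in the parental libraries (5.75 ± 0.70, adjusted p = 8.1e-07), and ETV5, a transcription factor downstream of ERK, was at 2.76. The deleted line at day 3 averaged 1.02 CPM for DUSP6 and 0.259 CPM for SPRY4, and at day 6 it averaged 0.947 and 0.238 CPM. For EGR1 the deleted line averaged 4.59 CPM at day 3, 9.00 CPM at day 6 and 4.92 CPM with the drug. Against the same parental libraries, 7 of the 18 were higher and 2 lower at day 3 (median 0.27). At day 6, 7 were higher and none lower (median 0.35). With doxycycline in both lines 4 of the 18 were higher and 1 lower (median 0.06). In the parental line without against with the drug 3 were higher and 3 lower (median -0.21), and in the deleted line at day 9 against with the drug 13 were higher and 1 lower (median 0.82).

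Among RNAs kept in the nucleus, NEAT1, the scaffold of paraspeckles, had 2.71, 2.001 and 3.99 CPM at day 9 and 15.0, 12.6 and 16.2 CPM in the parental libraries (-2.33 ± 0.19, adjusted p = 5.3e-09). MALAT1 had 1453, 1017 and 851 CPM at day 9 and 1195, 1013 and 1238 CPM in the parental libraries and was not called (-0.05 ± 0.13, adjusted p = 0.75), but without day 9 replicate 1 it was at -0.30 with adjusted p = 0.018. The hosts of small nucleolar RNAs SNHG3, ZFAS1 and GAS5 were at -1.27, -1.20 and -1.15, and the list had 3 higher and 11 lower of 19 (median -0.39, and -0.60 without day 9 replicate 3). Annexins, galectins and S100 genes gave 2 higher and 10 lower of 18 (median -0.40, and -0.18 with the span trend removed). S100A6, a calcium-binding protein, had 0.0442, 0.0421 and 0.119 CPM at day 9 and 2.70, 2.40 and 2.74 CPM in the parental libraries, and LGALS1 was at -1.66. CCL2, a chemokine under NF-kB, had 2.71, 3.03 and 2.98 CPM at day 9 and 0.337, 0.416 and 0.119 CPM in the parental libraries (3.32 ± 0.32, adjusted p = 4.1e-08), and NF-kB targets as a list had 7 higher and 5 lower of 15.

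Other lists had members in both directions. The p53 targets gave 8 higher and 8 lower of 25, with TP53I3 at 3.40, PHLDA3 at 1.27, PLK2 at 1.09 and CCNG1 at -1.44. Interferon-inducible genes gave 12 higher and 5 lower of 33, with IRF7 at 1.73, and OAS1, OAS2 and IFIH1 at -3.54, -1.93 and -1.86. Antigen presentation had 3 higher and 9 lower of 16, with PSMB10 at 1.36, and PSMB8, HLA-E and ERAP2 at -1.37, -1.04 and -0.83. In the parental line without against with the drug, 6 of that list were higher and 1 lower. At day 9 against with the drug, the deleted line had 4 higher and none lower. Lysosome and autophagy genes gave 12 higher and 15 lower of 35, with GPNMB at 1.57, and WIPI1, GABARAPL1 and NPC2 at -1.73, -1.52 and -1.28. HOX genes, which record the position of a cell along the body axis, gave 11 higher and 10 lower of 34. HOXC9 had 0.232, 0.0421 and 0.129 CPM at day 9 and 2.16, 2.62 and 1.77 CPM in the parental libraries, and it was as low in the deleted line with the drug (0.0626 CPM, against 3.74 CPM in the parental line). HOXA5 was at 1.42, and HOXC10 and HOXA4 at -1.96 and -1.79. Imprinted genes gave 7 higher and 6 lower of 17, with PHLDA2 at 1.73, IGF2 at 1.27, and RTL1 and DLK1 at -3.24 and -1.56. IGF2 and RTL1 were at most 0.619 and 0.399 CPM in any of the 6 libraries compared. Of 9 tested cancer-testis and germline genes none was higher and 4 were lower, LIN28A, DAZL, SYCP2 and PRAME, at -2.98, -1.49, -1.10 and -0.69.

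The matrix and adhesion list had 9 higher and 13 lower of 35, and 13 higher and 6 lower with the span trend removed, so that its direction turned. THBS1 was at 3.10 and LOXL2, NID2 and COL12A1 at -1.90, -1.54 and -1.81. Synaptic genes had 10 higher and 14 lower of 33, and a median of -0.18 that was 0.14 without the span trend. SYN3, a synaptic vesicle protein, had 18.8, 17.9 and 23.2 CPM at day 9 and 87.5, 95.4 and 114 CPM in the parental libraries (-2.31 ± 0.11, adjusted p = 6.5e-12). SV2B, GRIN1 and CACNA1A were at most 0.700 CPM in any of the 6 libraries. Replication-dependent histones gave 6 higher and 3 lower of 36, and 3 and 4 without day 9 replicate 3; H4C1 and H3C12 were at 1.99 and 1.91, and H2BC15 and H2BC11 at -1.64 and -1.38.

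HAP1 cells grow attached and are known to lack most blood-cell markers. Of 22 haematopoietic markers 7 reached 1 CPM in a compared library, and GATA1, MPO, HBG1, HBG2, CD3E and CD53 were among those with 0 counts in all 6. Their summed level was 111.2 to 119 CPM at day 9 and 80.6 to 84.1 CPM in the parental libraries. Of 11 tested, 5 were higher and 3 lower. GATA2 averaged 70.9 CPM at day 9 and 29.8 CPM in the parental libraries (1.25), and TAL1 was at 1.25. KIT, a receptor of blood progenitors, and RUNX1 were at -1.68 and -0.91. CD34 and CD33 were at most 0.435 CPM in any of the 6. GATA2, TAL1 and RUNX1 were chosen after their values were seen. Mesenchymal markers summed to 1016 to 1309 CPM at day 9 and 717 to 739 CPM in the parental libraries. Most of that was VIM, the filament protein vimentin, with 836, 762 and 1010 CPM at day 9 and 433, 434 and 401 CPM in the parental libraries (1.04 ± 0.08, adjusted p = 1.7e-09), and THY1, SPARC and ZEB1 were at 2.71, 1.03 and -1.04. Neuronal markers summed to 220 to 245 CPM at day 9 and 72.2 to 84.1 CPM in the parental libraries, with 7 higher and 5 lower of 14 tested and DCX and NEUROD1 at 0 in all 6. INA, TUBB3 and CHGB were at 3.51, 1.10 and 4.37 and RBFOX3 at -3.04, with CHGA, STMN2 and ELAVL3 at most 0.305 CPM. NEFM was at -1.38, a call that did not hold without each library, and TUBB3, RBFOX3 and NEFM were chosen after their values were seen. Epithelial markers summed to 75.5 to 96.9 CPM at day 9 and 49.1 to 61.2 CPM in the parental libraries, with KRT7, KRT5 and KRT14 at 0 in all 6, KRT18 at 1.05, and ESRP1, CLDN4 and CLDN7 at -1.15, -2.48 and -2.44. CLDN4 and CLDN7 were at most 0.347 and 0.575 CPM in any of the 6. Endothelial markers summed to 16.2 to 22.8 CPM at day 9 and 38.0 to 39.7 CPM in the parental libraries, with TEK, ERG and CLDN5 at 0 in all 6, FLT1 at -1.34 and KDR at -2.68. KDR was at most 0.391 CPM in any of the 6. The part of these markers in the results above was not tested.

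Fold changes moved with the span of a gene on the chromosome. Over 21615 genes the rank correlation of the log2 fold change with span was -0.19, and with exonic length -0.13, as a description across genes of the same libraries. In the tenth of genes with the largest span, at a median of 222.7 kb, the median log2 fold change was -0.41, and in the tenth with the second smallest, at 2.49 kb, it was 0.21. The same correlation with span was 0.00 between the lines with the drug, -0.16 at day 3 and 0.00 at day 6 against the same parental libraries, and 0.14 in the parental line without against with the drug. After the trend with span and length was removed the correlation was 0.03 and calls stood at 7016 higher and 5903 lower, so that 54.3% of calls were higher, against 47.8% before. Among genes named here, that moved SDHC to -0.22, SDHA to -0.30, XPNPEP3 to -0.49, PDK3 to -0.39, ERN1 to -0.53, ZEB1 to -0.58, FLT1 to -0.86 and LARS2 to 0.99.

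**Figure D5:**
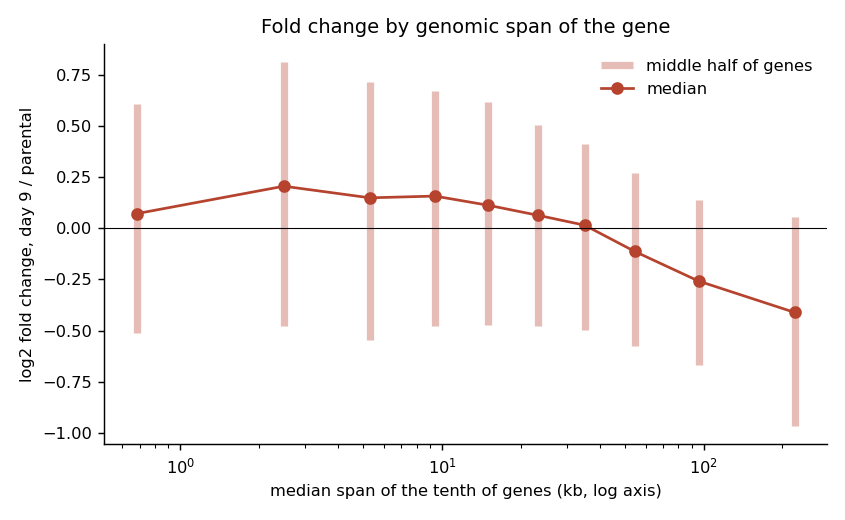
Median log2 fold change of day 9 over the parental line without doxycycline in 10 equal groups of genes ordered by span, at the median span of each in kb on a log axis, with the lower to upper quartile of the genes as a bar. The medians lie above 0 for the shorter groups and reach -0.41 in the longest.

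Chromosomes differed in their median. The lowest were chromosome 18 at -0.31 over 312 genes and chromosome 13 at -0.24 over 431, and the highest were chromosome 19 at 0.20 over 1388 genes and chromosome 16 at 0.19 over 942. With the span and length trend removed, chromosomes 18 and 13 were at -0.09 and -0.11, and chromosomes 19 and 16 at 0.18 and 0.23. Chromosome 3 was at 0.12 over 1280 genes, and at 0.20 with the trend removed. With doxycycline in both lines its median was 0.22, and each of the other 22 chromosomes listed then lay between -0.03 and 0.03.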

How the data were processed

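RNA of 18 libraries, 6 groups of 3, was sequenced as 151-bp pairs after column purification, per the labels' protocols. The authors deposited 3 tables of raw counts per gene, whole numbers with no normalization, on GRCh38 coordinates. Tools in the submitters' processing notes are HISAT2, SAMtools, cutadapt 2.3, featureCounts of Subread, and DESeq2, without roles or order. The names of the count columns end in HISAT2_RF, which may name a strand setting of the alignment. The strand setting used in counting was not given in those notes, so overlapping or antisense genes are uncertain. Gene lengths in the deposited tables are a score in bases used for the length trend. The tables were joined by gene name, and 16 genes broken over several lines were rejoined. Samples were grouped by their labels.

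Counts of the 18 libraries were fitted with edgeR 4.0.16 (quasi-likelihood test, trimmed mean of M-values scaling, expression filter by group, 1 mean for each of 6 groups), which left 21615 genes. The common biological coefficient of variation was 0.12. A gene was called at a Benjamini-Hochberg adjusted p under 0.05 over all tested genes, and SE is the fold change over the root of F. CPM use the scaled library sizes. The procedure was tried on simulated counts with far fewer changed genes than these data and with no library apart. Its error rate on these data was thus not measured. In each pair of replicates the counts differed beyond sampling noise. The replicate numbers did not pair the libraries, with correlations near 0.

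The 45 gene lists, of which 44 had tested members, and the comparison itself were chosen with earlier results of these data known. The genes named are 13 set by name; the 12 highest and 12 lowest among genes called in the fit and without each of the 6 libraries, with groups apart and at least 5 CPM in the higher group, passing over pseudogenes, antisense and LINC genes; and from each list up to 4 members of largest difference called in the same way, plus members that go against their list. A gene named outside the rule (ASNS, CHAC1, MT1X, SLC30A1, NAF1) was chosen after its values were seen. Alternatives were DESeq2 1.42.0, other scalings and filters, the 6 libraries alone, each library left out, a replicate block, removal of a smooth trend with span and length (mgcv 1.9.3), and an adjusted p under 0.01. Some results are not reported here.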

Additional observations from a re-analysis of the deposited data

Results flagged for a closer look

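Beside each gene named here stands the line difference without doxycycline, day 9 over parental, minus the line difference with it, on the log2 scale. It was tested as an interaction in edgeR's quasi-likelihood fit, and those given passed an adjusted p under 0.05, as did 51.7% of all tested genes. Among the genes fixed by name, SARS2 was at 0.94, MRPS12 at 1.52, NFKBIB at 1.60, ATF5 at 0.60, CCER2 at -1.24, FBXO17 at -4.10, NEAT1 at -3.13, MALAT1 at -0.68 and TXNIP at -3.02. Among the 12 genes highest at day 9, PTN was at 1.05, ACTG2 at 2.75, DUSP6 at 2.98, EGR1 at 2.55, BSN at 3.62, CSRP1 at 1.28, INA at 2.67, GASK1A at 1.11, MANEAL at 2.06, TP53I3 at 3.40 and BICDL1 at 3.06. Among the 12 lowest, CAPN6 was at -5.72, LOC124900697 at -4.18, LOC112268113 at -6.24, BMP2 at -1.33, LOC124906082 at -4.78, IL21R at -2.76, ELAPOR2 at -3.11, MVP at -5.14 and SNAP91 at -2.56. The highest and lowest genes were chosen by the line difference without the drug, the first term of this interaction. Their signs and their passing were thus partly set by the choice. The effect with the drug and the effect without it rest on 3 libraries per group each.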

How the results depend on the processing

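The count of genes called at day 9 against the parental line was 12148 to 13006 without each of the 6 libraries in turn, 10256 with only those 6 in the fit, 13259 with DESeq2, 10933 with at least 1 CPM in 3 libraries and 12936 with a replicate block, which changed no call of a named gene. With library size alone as the scaling the median of all genes moved to -0.11 and 5361 genes were higher and 7660 lower, a share of 41.2% higher against 47.8%. Genes near 0 in either the day 9 or the parental libraries numbered 39 with limits of 0.05 and 0.5 CPM, against 12. With the span and length trend removed the chromosome medians ran between -0.11 and 0.23. SARS2 was at -0.0238 with library size alone, and between -0.0456 (without day 9 replicate 3) and 0.1963 (without day 9 replicate 2) with 1 library left out. MALAT1 was at 0.10 without day 9 replicate 3, 0.0034 without day 9 replicate 2 and 0.0019 without parental replicate 3. List medians turned for matrix and adhesion (0.15 without the span trend, 0.17 with the block too), synaptic genes (0.14 and 0.13), epithelial markers (-0.23 with DESeq2 and -0.23 with no filter on low counts) and mesenchymal markers (-0.30 with DESeq2, -0.30 with no filter, -0.13 without day 9 replicate 2 and -0.10 without parental replicate 1, up to 0.3195 without parental replicate 2). Medians closer to 0 also changed sign with 1 library left out, namely haematopoietic markers (-0.34 to 0.23), HOX genes (-0.12 to 0.10), cytosolic ribosome (-0.11 to 0.04), amino acid transporters (-0.07 to 0.03), interferon-inducible genes (-0.10 to 0.24) and synaptic genes (-0.29 to 0.07), and so did some under other scalings or without the span trend. The cause was not tested. The 11176 genes whose line difference departed from that with doxycycline were 10342 to 11005 without each of the 6 libraries with the drug, an alternative chosen after seeing the data. Of 3008 values of the 202 named genes, 2996 kept direction and side of the threshold. The highest, lowest and list genes were named only if called without each of the 6 libraries. For those fits the count was thus largely set by the choice of genes, and it is no measure of how steady other genes are.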

Other observations

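Some genes split within the day 9 libraries and were chosen after their values were seen. SMIM11, a small membrane protein, had 1.66, 40.4 and 22.8 CPM in the 3 day 9 libraries and 2.302, 1.36 and 0.906 CPM in the parental libraries. PRODH, the mitochondrial proline dehydrogenase, had 9.58, 8.89 and 0.831 CPM in the day 9 libraries and 0.803, 1.04 and 0.928 CPM in the parental libraries.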
